A study of Mus musculus with 78 samples.

Results

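Methionine restriction was examined in the liver of male C57BL6/J mice that had eaten a diet holding 0.12% methionine by weight for 12 months, against littermates on the same purified diet with 0.86% methionine. Both groups were 14 months old and comprised 3 libraries each, the restriction having begun at 2 months of age. The 6 libraries were chosen by their group label from 78 liver libraries in 26 groups, and the results cover all 13858 genes that passed the filter on low counts, of 43629 in the count table. The rest of the series holds drug-treated, calorie-restricted and dwarf mice with their own controls. Only males of a single inbred strain were restricted, at a single methionine level and a single duration.

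Methionine is an essential amino acid that starts protein synthesis and, as S-adenosylmethionine, donates methyl groups. The liver passes its sulfur on to cysteine, glutathione and taurine, and can remake methionine from homocysteine with betaine as the methyl donor. When amino acids run short, uncharged transfer RNAs activate the kinase GCN2, translation of the transcription factor ATF4 increases, and ATF4 induces genes of serine, asparagine and proline synthesis, amino acid uptake and transfer RNA charging. NRF2 is the transcription factor of the antioxidant and detoxification program, and the sex-biased genes of mouse liver follow the pattern of growth hormone secretion.

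The libraries held between 26337452 and 35011455 assigned reads. Of the 13858 genes, 527 (3.8%) passed an adjusted p of 0.05 in edgeR's quasi-likelihood test, 268 higher (1.93%) and 259 lower (1.87%) in restricted livers. The 3 restricted libraries lay on the same side of all 3 control libraries for 3442 genes (24.8%), above them for 1768 (12.8%) and below them for 1674 (12.1%). Control library 1 stood apart from the other two on the second principal component, at -42.6 where the others were positive, a component that held 21.7% of the variance. Leaving out that library gave 1728 genes, and leaving out any one of the other 5 gave 98 to 308. In all 6 of these fits 86 of the 527 genes passed (54 higher, 32 lower), and those genes are named below as holding in all 6. The summed level of 17 hepatocyte markers was 109100 to 115400 CPM (a gene's share of assigned reads after TMM normalisation, scaled to the usual fixed library size) in restricted and 109100 to 122900 in control livers.

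**Figure D1:**
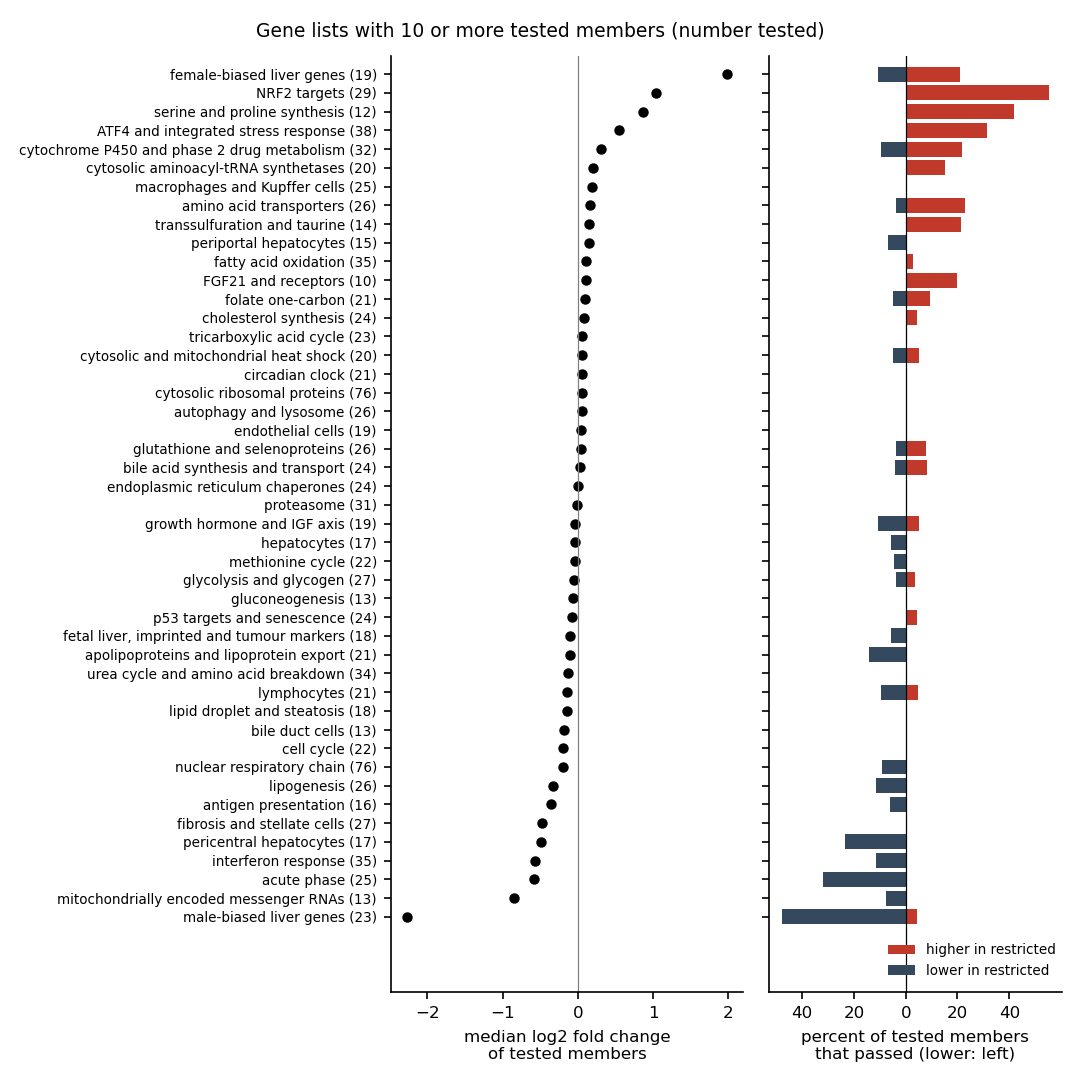
Gene lists with at least 10 tested members, ordered by the median log2 fold change of their members (left, restricted over control), with the share of members that passed higher or lower (right, percent). Female-biased genes (median 1.99), NRF2 targets, serine and proline synthesis and ATF4 targets lie at the upper end, and male-biased genes lie at the lower end with a median of -2.26. Of 25 female-biased genes 19 were tested. Members low in control males could pass the filter on low counts through the restricted libraries alone, so that median is not free of the filter.

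The promoters of tested genes were searched for 4 motifs, with no test between gene groups. The composite element for ATF4 and C/EBP factors was searched as TGATGNAA on both strands in the 250 bases before each RefSeq start (GRCm38.p6). It lay in 12 of 282 promoters (4.255%) of genes that rose, 5 of 214 (2.336%) of genes that fell, and 279 of 13438 (2.076%) of all tested genes with a promoter in the table. Among the listed ATF4 targets, 5 of 13 promoters of members that rose held it, and 10 of 43 promoters of all tested members. The stretches around the matches are shown because they put the genes that rose beside a pair of listed targets, Fgf21 and Chac1, that carry the same letters and did not pass the test. The listed targets Atf3, Jdp2 and Nupr1 also held a match, did not pass and are not shown. Phgdh, Slc7a1 and Xpot rose with no match in the promoters searched. Each is written 5′ to 3′ on the gene's strand, with the match in capitals.
Asns (chr6:7693214-7693243, minus strand): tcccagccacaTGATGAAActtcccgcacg
Slc7a11 (chr3:50443623-50443709, minus strand): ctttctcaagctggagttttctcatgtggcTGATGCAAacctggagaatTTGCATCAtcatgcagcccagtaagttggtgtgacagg
Pck2 (chr14:55540133-55540200, plus strand): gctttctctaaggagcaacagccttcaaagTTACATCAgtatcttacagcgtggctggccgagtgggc
Pycr1 (chr11:120643814-120643881, minus strand): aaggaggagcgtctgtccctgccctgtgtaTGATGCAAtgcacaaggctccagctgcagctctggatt
Vldlr (chr19:27216809-27216838, plus strand): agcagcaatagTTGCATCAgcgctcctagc
Fgf21 (chr7:45615592-45615659, minus strand): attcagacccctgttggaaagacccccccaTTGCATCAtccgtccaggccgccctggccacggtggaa
Chac1 (chr2:119351019-119351086, plus strand): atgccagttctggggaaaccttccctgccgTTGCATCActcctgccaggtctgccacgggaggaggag
The Slc7a11 promoter held 2 matches, one on each strand, beginning 66 and 47 bases before the start. The Asns match began 23 bases before its start, and the others lay 103 to 200 bases before theirs. The Asns and Vldlr matches fall inside the gene as GENCODE M21 annotates it, and only 30 bases are given for them. A match is a description of these letters, not evidence of binding.

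Of 38 tested genes that ATF4 is known to induce, 12 rose and 0 fell, with a median log2 fold change of 0.55 against 0.0009 over all genes. Leaving out one library at a time gave 5 to 16 members higher, the 16 without control library 1. Members of serine synthesis were among them. Phgdh, the first enzyme of serine synthesis from glycolysis (chromosome 3, 98313170 to 98339990), measured 19.9, 29.8 and 8.77 CPM in the 3 restricted libraries and 0.483, 0.512 and 0.568 in the controls. Its groups did not overlap, the third restricted library being the lowest of its group, and the log2 fold change was 5.21 ± 0.52 (SE; adjusted p = 0.0048).

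Psat1, the aminotransferase that follows Phgdh (chromosome 19, 15904678 to 15947337), measured 42.5, 60.8 and 27.3 CPM against 1.10, 2.68 and 3.11, a log2 fold change of 4.25 ± 0.44 (adjusted p = 0.0056). Psph, the last step of the same pathway, measured 8.31 ± 3.48 against 5.72 ± 1.31 CPM (SD, n = 3 each) and did not pass (adjusted p = 0.39). Asparagine synthetase, Asns (chromosome 6, 7675169 to 7693254), measured 87.9, 100.0 and 79.1 CPM against 3.67, 9.50 and 6.51, a log2 fold change of 3.77 ± 0.32. Asns, Phgdh, Psat1 and the mitochondrial folate enzyme Aldh1l2 held in all 6 fits that left out a library, and were the only 4 of the 12 to do so. Aldh1l2 measured 16.8, 20.7 and 13.6 CPM against 0.935, 0.631 and 0.535.

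Slc7a11, the cystine importer that supplies cysteine from outside the cell, had the largest log2 fold change of the list, 7.01 ± 1.33 (adjusted p = 0.040). Its restricted libraries differed widely, at 4.33, 22.1 and 2.00 CPM, and the controls held 6 reads in all, at 0, 0.118 and 0.100 CPM. The call held in 2 of the 6 fits. Pck2, the mitochondrial enzyme that makes phosphoenolpyruvate, measured 28.9, 38.9 and 18.5 CPM against 4.64, 6.34 and 7.45, and its call held in 5 of the 6. Vldlr, a lipoprotein receptor that ATF4 also induces, measured 21.4, 22.4 and 12.8 CPM against 0.580, 3.07 and 3.91, and Pycr1, which makes proline, 2.06 ± 0.754 against 0.624 ± 0.120.

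Amino acid transporters passed higher in 6 of 26 tested members and lower in 1. The cationic carrier Slc7a1 rose from 1.23 ± 0.178 to 4.68 ± 1.38 CPM, and the subunits of the large neutral amino acid exchanger, Slc7a5 and Slc3a2, rose by 1.06 ± 0.18 and 1.01 ± 0.17 on the log2 scale. Slc7a7, which exports cationic amino acids, rose by 1.28 ± 0.17. Slc43a1, a facilitative carrier of large neutral amino acids, fell from 9.51, 4.02 and 6.05 CPM in controls to 0.797, 1.04 and 1.23 in restricted livers (log2 fold change -2.66 ± 0.35). Among transfer RNA synthetases 3 of 20 passed, all higher and by similar small amounts: Rars by 0.48 ± 0.09, Vars by 0.48 ± 0.11 and Yars by 0.50 ± 0.10. Each of those 3 calls held in only 1 of the 6 fits.

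Several genes often read as markers of this response did not pass. Atf4 itself measured 99.1 ± 10.6 against 83.4 ± 8.90 CPM (log2 fold change 0.25 ± 0.12, adjusted p = 0.30), a transcript level that does not report translation. Ddit3, a stress factor of the endoplasmic reticulum, measured 8.60, 7.93 and 8.94 CPM against 6.90, 10.7 and 9.05, which overlap. Trib3, an inhibitor of AKT signalling, measured 21.6, 30.7 and 14.9 against 3.64, 14.6 and 17.7 CPM. Chac1, which breaks down glutathione, was high in a single restricted library, at 5.41, 2.87 and 20.5 CPM against 4.80, 5.36 and 3.67. Mthfd2, a mitochondrial folate enzyme, did not overlap between groups, at 8.08, 19.4 and 4.21 CPM against 1.32, 2.64 and 1.47, and missed the threshold (adjusted p = 0.065), as did the leucine sensor Sesn2, with 14.9 ± 2.22 against 10.1 ± 1.53 CPM (adjusted p = 0.11). Of 24 chaperones of the endoplasmic reticulum 0 passed edgeR's test, with 3 at an unadjusted p under 0.05 (2731 of 13858 over all genes) and 2 passing in DESeq2.

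**Figure D2:**
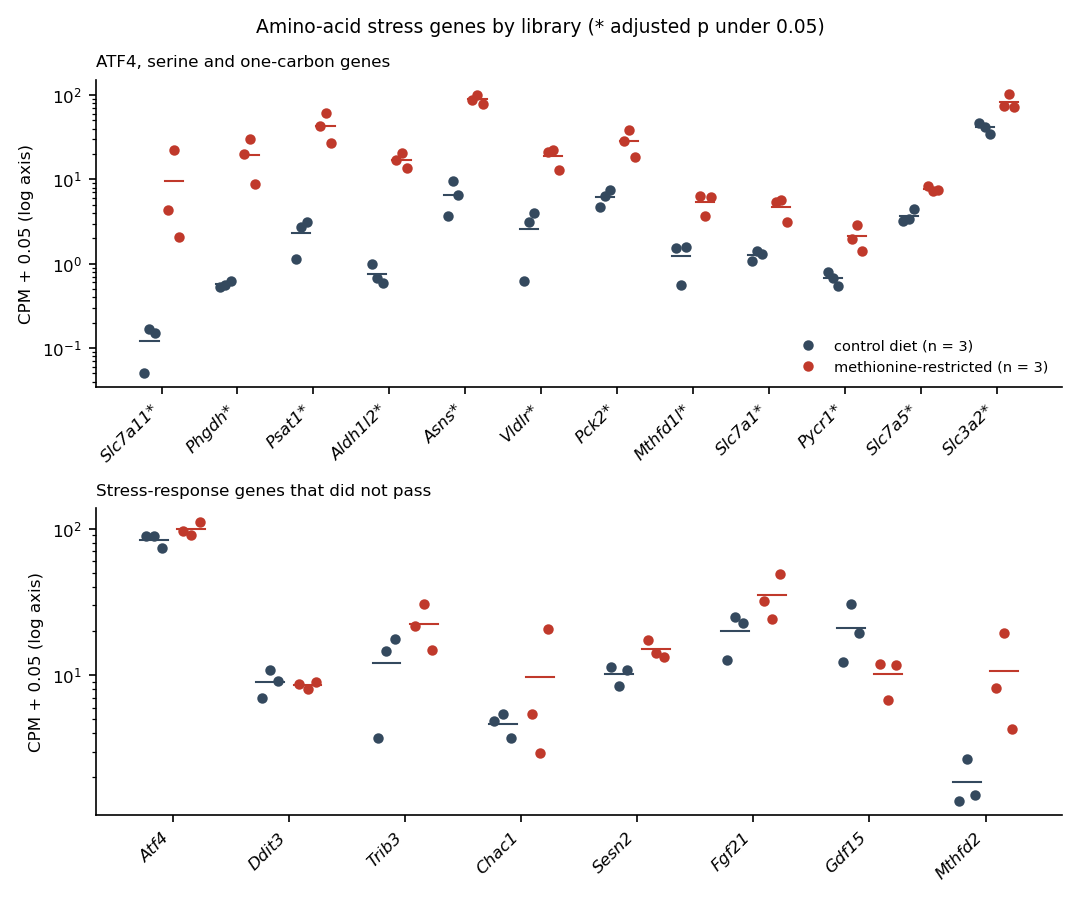
Level of each gene in each library (CPM + 0.05, log axis; bars are means of 3). The upper panel shows 12 genes of amino acid synthesis, uptake and folate metabolism that passed, each with all restricted libraries above all controls, and the lower panel 8 stress-response genes that did not pass.

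The hormone FGF21, which liver secretes under amino acid and other dietary stress, was tested beside its receptors. Fgf21 measured 32.1, 24.1 and 49.2 CPM in restricted and 12.6, 24.8 and 22.8 in control livers, so the groups overlapped, and the log2 fold change was 0.81 ± 0.33 (adjusted p = 0.23). Fgfr2, a receptor tyrosine kinase, rose from 43.8 ± 1.70 to 90.6 ± 8.78 CPM (log2 fold change 1.05 ± 0.10, adjusted p = 0.0025) and held in all 6 fits. Klb, the co-receptor that FGF21 requires, rose by 0.87 ± 0.13. Fgfr1 measured 4.26 ± 0.583 against 8.28 ± 2.92 CPM and did not pass (adjusted p = 0.084), and Fgfr3 and Fgfr4 had log2 fold changes of 0.06 ± 0.11 and 0.15 ± 0.13. Gdf15, another stress hormone, measured 10.1 ± 2.96 against 20.8 ± 9.34 CPM (adjusted p = 0.18).

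Of 22 tested genes that make and use methionine, 0 passed higher and 1 lower, 10 had a positive and 12 a negative change, and the median was -0.04. Their summed level was 6887 to 8298 CPM in restricted and 9054 to 9381 in control livers. The gene that fell was Bhmt, which remakes methionine from homocysteine and betaine (chromosome 13, 93616675 to 93637961). It measured 670.0, 476 and 479.5 CPM in restricted livers and 1348, 2653 and 2244 in controls, a log2 fold change of -1.94 ± 0.27 (adjusted p = 0.013). Most of the gap between the summed levels above lies in Bhmt alone. The antisense transcript Gm15622, which overlaps it, also fell (log2 fold change -4.67), and without stated strand the reads of the pair cannot be told apart.

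Dmgdh, which takes up the next step of betaine breakdown, fell by 0.50 on the log2 scale (adjusted p = 0.049). Mat1a, the S-adenosylmethionine synthetase of adult liver, measured 2829 ± 303 against 2655 ± 273 CPM. Gnmt, which disposes of excess S-adenosylmethionine, measured 1267 against 1465 CPM, and Ahcy, which forms homocysteine, 1585 against 1628; none of these 3 passed. Nnmt, which methylates nicotinamide, measured 13.5, 3.60 and 20.2 against 94.1, 33.4 and 30.3 CPM without overlap (log2 fold change -2.08 ± 0.67, adjusted p = 0.15). Mat2a is listed at 0 in all 6 libraries and was not tested.

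On the path from methionine to taurine, 3 of 14 tested genes rose and 0 fell. Csad, which decarboxylates cysteine sulfinate and commits it to taurine (chromosome 15, 102176999 to 102204724), measured 635, 773 and 844 CPM against 63.6, 139 and 179. Every restricted library lay above every control, with the first control the lowest, and the log2 fold change was 2.56 ± 0.36 (adjusted p = 0.016). The taurine transporter Slc6a6 rose from 108 ± 14.6 to 219 ± 42.6 CPM, and Fmo1, which oxidises hypotaurine to taurine, by 0.67 ± 0.14 on the log2 scale. Cbs and Cth, the enzymes that make cysteine from homocysteine, had log2 fold changes of 0.26 ± 0.12 (adjusted p = 0.30) and 0.59 ± 0.16 (adjusted p = 0.093), the restricted libraries lying above every control for Cth. Cdo1, which makes the substrate of Csad, measured 962 ± 81.7 against 1098 ± 434 CPM. Between 0 and 3 genes of this list rose when one library was left out. Without control library 1, 5 members also fell.

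NRF2 targets were the list with the largest share of calls: 16 of 29 tested members rose, 0 fell, and 24 of the 29 had all restricted libraries above all controls (12.8% of all genes did). The median log2 fold change was 1.04, and 10 to 18 members rose when one library was left out. Of the 16, 10 held in all 6 fits. Gsta2, an alpha-class glutathione transferase (chromosome 9, 78331018 to 78355788), measured 68.5, 93.2 and 105 CPM in restricted livers and 3.96, 3.94 and 4.11 in controls. It was among the most precise of the calls, at 4.47 ± 0.18 on the log2 scale (adjusted p = 4.2e-05).

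The genes next to Gsta2 on chromosome 9 moved with it. Gsta1 measured 7.14, 12.7 and 14.3 CPM against 0.387, 0.749 and 0.969, and Gsta4, which acts on lipid peroxidation products, 96.1, 132 and 102 against 24.7, 19.6 and 18.6. The predicted gene Gm10639 between Gsta1 and Gsta2 rose by 3.60. These paralogs share sequence, so their split of reads is uncertain. On chromosome 3 the mu-class genes Gstm1, Gstm2 and Gstm3 rose by 1.65 ± 0.13, 0.69 ± 0.13 and 2.54 ± 0.28 on the log2 scale, Gstm1 from 595 ± 25.5 to 1872 ± 237 CPM.

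Phase 1 and conjugation enzymes of the same list rose too. Ephx1, the microsomal epoxide hydrolase, measured 859, 1006 and 1058 CPM against 209, 217 and 242, and Aox1, an aldehyde oxidase, 229 ± 28.5 against 60.3 ± 7.34. Cbr1, a carbonyl reductase, rose by 1.73 ± 0.16 and Ugdh, which makes the sugar donor of glucuronidation, by 1.29 ± 0.12. Abcc4, an export pump, rose by 2.47 ± 0.27. Nqo1, a quinone reductase often used as an NRF2 marker, rose from 2.96 ± 1.03 to 7.39 ± 1.43 CPM (adjusted p = 0.044; 1 of 6 fits).

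Genes of glutathione synthesis and redox defence moved less. Gss, the second enzyme of glutathione synthesis, rose from 60.1 ± 3.05 to 104 ± 6.52 CPM and held in all 6 fits. Gclm, a regulatory subunit of the first enzyme, rose by 0.74 ± 0.16 (adjusted p = 0.049), and its catalytic partner Gclc measured 504 ± 50.5 against 314 ± 121 CPM (adjusted p = 0.22). Txnrd1 (adjusted p = 0.060), Srxn1 (adjusted p = 0.44) and Hmox1 (adjusted p = 0.33), which reduce thioredoxin and peroxiredoxin and break down heme, did not pass. Nfe2l2, which encodes NRF2, had a log2 fold change of 0.01 ± 0.15. The letters TGACNNNGC of the antioxidant response element, searched on both strands, were in 12.766% of promoters of genes that rose and 11.75% of all.

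**Figure D3:**
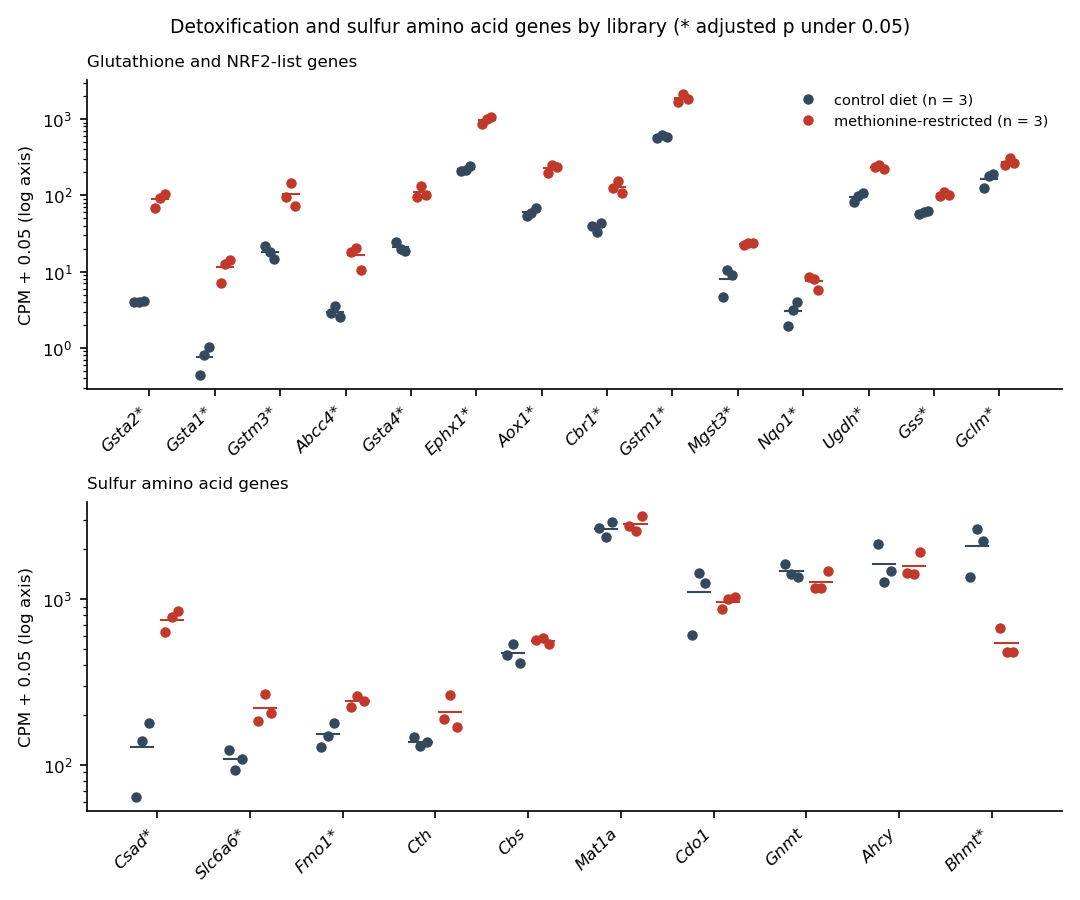
Level of each gene in each library (CPM + 0.05, log axis; bars are means of 3). In the upper panel every glutathione and NRF2-list gene has its restricted libraries above its controls. In the lower panel Csad, Slc6a6 and Fmo1 rose, Bhmt fell, and the 6 others did not pass.

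Drug and steroid enzymes outside the NRF2 list gave some of the most precise changes. Cyp4a14, a fatty acid omega-hydroxylase and a standard PPAR alpha target, measured 2203, 1616 and 2023 CPM against 122, 97.4 and 91.0 (log2 fold change 4.23 ± 0.18, adjusted p = 4.2e-05). It was the only 1 of 35 tested fatty acid oxidation genes to pass; its neighbour Cyp4a10 measured 519.9 ± 112 against 283 ± 75.1 (adjusted p = 0.082), and Cpt1a and Pdk4 had adjusted p of 0.42 and 0.66. Hsd17b6, which oxidises steroids, measured 251, 370.4 and 214 CPM against 18.1, 19.3 and 19.9. Cyp39a1, an oxysterol hydroxylase of bile acid synthesis, rose from 25.1 ± 2.84 to 146 ± 11.4 CPM. These genes, Cyp4a14, Hsd17b6 and Cyp39a1, held in all 6 fits.

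Bile acid genes otherwise split. Abcb11, the canalicular bile salt pump, rose by 1.04 ± 0.19, and Slc10a2, the sodium-dependent bile acid carrier, fell from 14.6, 14.0 and 10.2 CPM to 3.40, 2.33 and 2.29. Cyp7a1, which controls the rate of bile acid synthesis, measured 20.6, 32.3 and 103 CPM against 32.5, 12.9 and 104 and overlapped throughout. Of the 24 tested genes of this list, 2 rose and 1 fell.

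The basic helix-loop-helix gene Tcf24, which held in all 6 fits, rose from 0.129, 0.394 and 0.334 to 20.2, 16.8 and 11.9 CPM (log2 fold change 5.84 ± 0.35, adjusted p = 0.00022). Vil1, an actin-bundling protein of microvilli, rose from 2.37 ± 1.77 to 44.0 ± 7.23 CPM. Gadd45b, a stress and growth-arrest gene, rose by 2.26 ± 0.35.

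Of 26 tested lipid synthesis genes 3 fell and 0 rose, 8 had a positive and 18 a negative change, and the median was -0.34. Scd1, the desaturase that makes oleate, measured 7091, 9299 and 5264 CPM against 15270, 17940 and 15540 (log2 fold change -1.17 ± 0.20, adjusted p = 0.024). Fads1, a polyunsaturated fatty acid desaturase, fell by 0.63 on the log2 scale, and Agpat2, a triglyceride synthesis enzyme, fell by 0.61. Fasn, by contrast, measured 1484 ± 795 against 1139 ± 565 CPM, Srebf1 238 ± 59.4 against 291 ± 161, and neither passed. Without control library 1, 5 of the list fell, and without any other library 0 to 2. Cidec, a lipid droplet protein, measured 5.16 ± 1.37 against 8.89 ± 2.02 CPM without overlap (adjusted p = 0.12). Its relative Cidea, on chromosome 18, held 0 reads in the restricted libraries and 293 in the controls, 4 of them in the first, and was removed by the filter on low counts.

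The apolipoprotein cluster on chromosome 9 fell together. Apoa4, made in response to fat load, measured 223, 247 and 229.8 CPM against 482, 2884 and 2001, Apoa1, the main protein of high-density lipoprotein, 5804 ± 229.9 against 9214 ± 1525, and Apoc3, an inhibitor of triglyceride clearance, 1462 ± 74.4 against 2124 ± 218. Their adjusted p values were 0.042, 0.045 and 0.047, and each call held in 1 of the 6 fits. In the first control library Apoa4 was lower than in the other two.

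Growth hormone signalling was examined through its liver targets. Igf1, the circulating growth factor, fell from 506, 426 and 495 to 293, 309.8 and 361 CPM (log2 fold change -0.57 ± 0.12, adjusted p = 0.045), and Ghr, the growth hormone receptor, from 577 ± 96.6 to 359.9 ± 40.8 (adjusted p = 0.047). Igfbp2, a binding protein for Igf1, rose from 436 ± 62.3 to 1070.0 ± 169 CPM and held in all 6 fits. Igfbp1 (-0.29 ± 0.47), Igfals (0.03 ± 0.24) and Socs2 (0.75 ± 0.62) did not pass. Of 19 tested genes of the axis, 1 rose and 2 fell.

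Male-biased liver genes had the lowest median of any list drawn, -2.26: 11 of 23 fell, 1 rose, and 17 had every restricted library below every control. The major urinary proteins, pheromone carriers that male liver secretes, stood out. All 23 Mup genes and pseudogenes tested lay below control in every restricted library (12.1% of all genes did), and 17 passed. Mup7 (chromosome 4, 60066469 to 60070475) measured 23.7, 15.9 and 74.7 CPM against 8225, 1188 and 2118, a log2 fold change of -6.66 ± 1.04. Mup17 measured 1.56, 1.52 and 3.52 against 258, 161 and 335, and Mup15 0.104, 0.225 and 0.487 against 111, 41.3 and 72.1.

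Other members changed less than these. Mup3 fell from 5475 ± 1064 to 1494 ± 816 CPM (log2 fold change -1.87 ± 0.38), and Mup20 measured 1645 ± 927 against 4489 ± 981 (adjusted p = 0.093). The urinary protein genes are near-identical copies in 1 cluster, so their reads may be split between them and they are not separate observations. Mup17 and Mup15 held in all 6 fits, and Mup7 in 2. In the third restricted library Mup7, Mup1, Mup3 and Mup20 were higher than in the other two, and in the first control library Mup7, Mup1, Mup12 and Mup16 were several times the other controls.

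Male-biased genes outside the cluster included Hsd3b5, a steroid dehydrogenase, which fell from 233, 111 and 125 to 3.09, 3.99 and 19.8 CPM, and Cyp4a12b, a fatty acid hydroxylase under androgen control, from 57.8 ± 5.27 to 2.96 ± 1.69. C4a, the sex-limited complement protein, fell from 176, 41.0 and 52.4 to 1.91, 2.39 and 4.78 CPM, and Selenbp2 from 253, 25.7 and 42.3 to 3.36, 2.31 and 4.38. Elovl3 (adjusted p = 0.38), Cyp2d9 (adjusted p = 0.44), Cyp7b1 (adjusted p = 0.42) and Slco1a1 (adjusted p = 0.20) did not pass. Left-out libraries gave 2 to 14 genes of the list lower, the 14 without restricted library 3, and 3 fell when no filter on low counts was used.

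Female-biased genes had a median of 1.99, with 4 of 19 higher and 2 lower. Of the 25 genes on the list, 19 were tested. As all 6 libraries are male, members low in controls could pass the filter on low counts through the restricted libraries alone. The median and the share that rose are not free of this filter. Cyp2a4, a steroid hydroxylase, measured 208, 126 and 15.3 CPM against 0.580, 1.10 and 2.07, with the third restricted library far below the other two. Slc22a26, an organic anion carrier, measured 22.6, 20.3 and 5.79 against 0.419, 0.906 and 1.04, and Fmo2 27.9 ± 10.9 against 9.31 ± 0.883. Cyp4a14, described above, is also on this list and was its only called member to hold in all 6 fits. Cyp2b9 (157, 141 and 46.9 against 0.258, 8.99 and 12.3 CPM, adjusted p = 0.082) and the female-specific repressor Cux2 (4.15 ± 3.28 against 0.588 ± 0.0496, adjusted p = 0.073) did not overlap and did not pass. The list ran against itself in Ntrk2, a neurotrophin receptor that fell from 12.7 ± 3.98 to 1.24 ± 1.32 CPM, and Sult1e1, the estrogen sulfotransferase, with 2 reads in the restricted libraries and 47 in the controls. The ratio of control to restricted has a 95% exact interval of 7.08 to 229.7, for counting error only.

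A second description took the sex difference from other mice. Between 3 male and 3 female UM-HET3 controls at 12 months, 104 genes were higher in males and 129 in females by at least 1 on the log2 scale. This list was added after the restriction results were known. Of the 101 male-higher genes tested here, 23 fell (22.8%) and 1 rose, with a median of -0.55, and without the Mup genes 17 of 92 fell, with a median of -0.40. Of the 129 female-higher genes, 104 passed the filter on low counts here, against 101 of the 104 male-higher genes. Of those 104 female-higher genes, 13 rose (12.5%) and 3 fell, with a median of 0.32. Female-higher genes low in control males could enter through the restricted libraries alone, so this share and median are not free of the filter. Genes given above with other lists were among the 13 that rose: Cyp4a14, Cyp39a1, Vldlr, Abcc4, Nqo1 and Fmo1. Without one library 2 to 32 male-higher genes fell and 6 to 18 female-higher genes rose. Among the male-higher genes was Scara5, a ferritin receptor, with 8 reads in the restricted and 2003 in the control libraries (22.3 ± 23.4 CPM in controls, the first library being the highest).

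**Figure D4:**
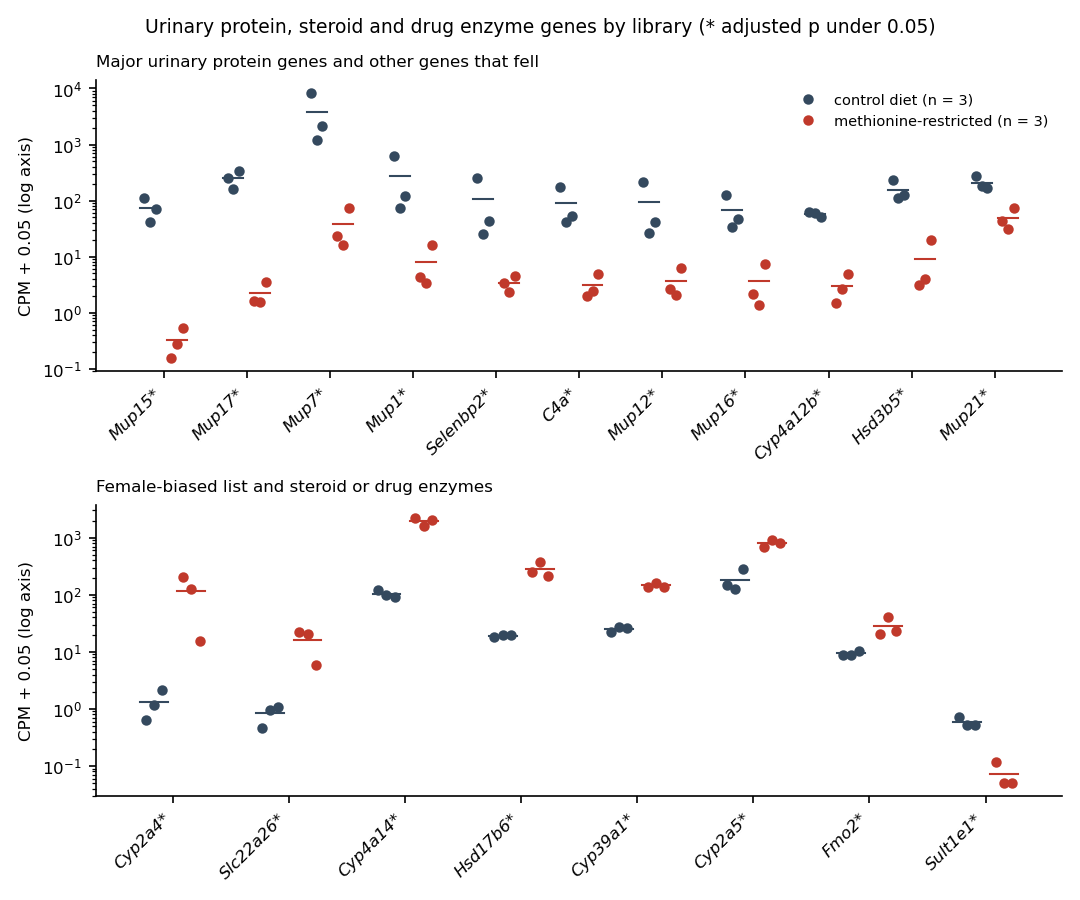
Level of each gene in each library (CPM + 0.05, log axis; bars are means of 3). Urinary protein and other genes in the upper panel fell in all 3 restricted livers, and the enzymes and carriers in the lower panel rose except Sult1e1, which held 2 reads in the restricted libraries.

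Acute phase genes, whose secreted products mark inflammation, fell in 8 of 25 tested members and rose in 0, with a median of -0.58. Saa1, serum amyloid A, measured 13.0, 7.65 and 13.8 CPM against 73.9, 82.7 and 96.0 (log2 fold change -2.88 ± 0.23), and its neighbour Saa2 fell by 3.17 ± 0.37 on the log2 scale. Lcn2, an iron-siderophore binding protein, fell from 15.3 ± 5.35 to 1.91 ± 0.726 CPM, and Orm1, Orm2 and Orm3, the orosomucoids, fell by 1.33, 2.66 and 3.02 on the log2 scale. Saa1, Saa2, Lcn2, Orm2 and Orm3 held in all 6 fits, and 5 to 10 members fell when a library was left out. When all 8 male groups shared one estimate of the spread, 0 of the 25 passed, with Saa1 at an adjusted p of 0.32. The constitutively abundant Hp and Fgb measured 1888 ± 329.7 against 2821 ± 217 and 4258 ± 265 against 5214 ± 643 CPM and did not pass.

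Of 35 tested interferon-induced genes 4 fell and 0 rose, 31 had a negative change, and the median was -0.57. Oas1a, a viral RNA sensor, fell from 8.08 ± 1.09 to 3.68 ± 0.837 CPM, and the guanylate-binding proteins Gbp3 and Gbp7 and the peptide transporter Tap1 by 1.12, 0.90 and 0.77 on the log2 scale. Each held in 1 of 6 fits, namely that without control library 1, in which 14 of the list fell; without any other library 0 did. Markers of lymphocytes summed to 36.2 to 43.5 CPM in restricted and 48.5 to 105 in control livers. The plasma cell genes Igkc and Jchain fell by 1.44 and 1.86 on the log2 scale, while Cd79b, of the B cell receptor, rose from 0.744 ± 0.0403 to 1.72 ± 0.172 CPM. In whole tissue, fewer cells of a type and less RNA per cell cannot be told apart. Macrophage markers summed to 462 to 1128 against 588 to 783 CPM, and 0 of 25 passed in edgeR's test or in DESeq2. In edgeR's test 6 of the 25 had an unadjusted p under 0.05, beside 2731 of 13858 over all genes. Whether cell makeup contributed to the interferon and acute phase results was not tested.

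Fibrosis and stellate cell markers passed in 0 of 27 tested genes in edgeR's test, and 2 passed lower in DESeq2. In edgeR's test 15 of the 27 had an unadjusted p under 0.05, beside 2731 of 13858 over all genes. A negative change was found for 25 of the 27, and the list summed to 509 to 584 CPM in restricted against 649 to 780 in control livers. Col1a1 measured 5.03, 11.5 and 13.5 against 7.74, 25.2 and 38.0 CPM. Without control library 1, 10 of them fell; without any other library 0 did. Pericentral hepatocyte genes fell in 4 of 17, namely Rhbg, Tbx3, Gulo and Rgn by 1.77, 0.81, 0.80 and 0.55 on the log2 scale, and Glul and Cyp2e1, the best known of them, had adjusted p of 0.27 and 0.34. These 4 calls held in 1, 2, 2 and 1 of the 6 fits, and 0 to 5 of the list fell when a library was left out, the 5 without control library 1. Of 15 periportal genes 1 fell, the secreted phosphoprotein Spp2 (log2 fold change -1.16). Cela1, listed with the exocrine pancreas, fell from 12.3 ± 1.73 to 3.45 ± 0.694 CPM. It was also among the genes higher in male than female UM-HET3 control livers. Of the 10 pancreas genes listed 2 were tested, and the other, Cela2a, held 43 reads in restricted and 22 in control libraries and did not pass. Skeletal muscle markers summed to 8.51 and 6.91 CPM in controls 2 and 3, against 0.580 in control 1 and 0.485 to 0.888 in restricted livers. Most of that sum was myoglobin, Mb, with 357 reads in the controls and 1 in the restricted libraries, and Ckm held 30 and 1. The other muscle markers did not share this: Mylpf held 38 reads in controls and 44 in restricted libraries, Acta1 9 and 10, Tnni2 6 and 7, Tnnt3 1 and 4, and Myh4 and Tnnc2 0 in both. Controls 2 and 3 are also those with nearly all Cidea reads. Other fat markers were mixed: Cfd held 111 reads in controls and 1 in restricted libraries, Fabp4 428 and 289, Adipoq 2 and 5, and Ucp1 and Lep 0 in both. The source of these reads was not tested. Sums of kidney and adrenal markers stayed at or under 3.90 CPM in every library.

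Of 76 nuclear-encoded respiratory chain subunits 7 fell and 0 rose, 67 had a negative change, and the median was -0.20. Atp5k and Ndufa1, small subunits of ATP synthase and of complex I, fell by 0.93 and 0.65 on the log2 scale. Of 13 mitochondrially encoded messenger RNAs, 12 had every restricted library below every control (12.1% of all genes did), with a median of -0.85. They share the mitochondrial genome and are not separate observations. Only mt-Nd2 passed, at 2619, 2520 and 2680 CPM against 3530, 5707 and 6489. In the first control library the sum of the 13 was 33360 CPM, nearer to the restricted libraries (28700 to 28950) than to the other controls (53190 and 59140).

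Transcript length moved with the respiratory chain result. The 7 subunits that fell had a median exon length of 641 bases, against 1779 for the 76 and 4453 for all tested protein-coding genes. Among other protein-coding genes under 1000 bases the median log2 fold change was -0.23 and 9.13% fell, while among those over 4000 bases it was 0.03 and 1.36% fell. Within the respiratory chain the median went from -0.37 under 1000 bases (17 genes) to -0.08 over 4000 (11 genes). The part of length in the result was not tested. Without control library 1, 25 subunits fell, and without any other library 0 or 1.

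Several processes showed 0 members past the threshold in edgeR's test. Over all genes, 2731 of 13858 had an unadjusted p under 0.05 in that test, the background for the counts that follow. At an unadjusted p under 0.05 were 2 of 13 genes of gluconeogenesis, 8 of 34 of the urea cycle and amino acid breakdown, 4 of 23 of the tricarboxylic acid cycle and 0 of 6 of ketogenesis. The same held for 4 of 76 cytosolic ribosomal proteins, 1 of 31 proteasome subunits, 4 of 26 genes of autophagy and the lysosome, 1 of 21 clock genes and 4 of 22 cell cycle genes. DESeq2 passed 6 genes of the urea cycle list, 1 each of the tricarboxylic acid cycle, ribosomal and clock lists, and 0 of the others. The clock-linked protease Usp2 measured 36.5, 56.8 and 74.0 CPM against 61.0, 3.11 and 54.6, the second control standing apart, and the keratins Krt8 and Krt18 had log2 fold changes of -0.09 ± 0.30 and 0.05 ± 0.29. Counts were also simulated for 3 libraries in each group, from the control means and the fitted spread of each gene. They gave a call for 55.7% of 194 genes changed by a factor of 2, so a missing call does not show that a gene did not change. In the same simulation 9.24% of the calls were of genes that had not been changed. It changed 194 of 13640 genes and included no library that stood apart, so these shares may not hold for the real libraries.

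Genes that passed sometimes lay side by side. Of 13755 pairs of neighbouring tested genes, 19 had both members higher, 32 both lower and 6 opposite. Of the pairs that fell, 12 joined Mup genes, and others lay at Orm1 to Orm3, Saa1 and Saa2, and Apoa1, Apoc3 and Apoa4. On chromosome 17 C4b, Cyp21a1 and C4a fell together (log2 fold changes -0.68, -2.92 and -4.88), and Cyp21a1, a steroid hydroxylase of the adrenal gland, held 15 reads against 104. The pairs that rose included Gsta and Gstm genes, Fmo1 with Fmo2, and Aox1 with Aox3.

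The restriction effect was compared with 3 other male models in the series, each against its own control and with 3 libraries a group. These were UM-HET3 mice after 8 months of 40% calorie restriction, killed at 12 months, and 5-month-old growth hormone receptor knockout ((C57BL6/JxBALB/cByJ)/F2) and Snell dwarf ((PW/JxC3H/HeJ)/F2) mice. Strain, age and base diet differed between the sets and cannot be told apart from the intervention. In a fit of the 8 groups, the restriction effect differed from the calorie restriction effect for 815 of 13905 genes (5.86%), from the knockout effect for 1759 (12.7%) and from the Snell effect for 1884 (13.5%). The first count was 524 when only those 4 groups were fitted.

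Phgdh, Psat1 and Csad differed from all 3 models. Phgdh changed by 5.20 ± 0.47 on the log2 scale under methionine restriction and by 0.37 ± 0.82, 0.52 ± 0.76 and 0.85 ± 0.78 in the calorie-restricted, knockout and Snell livers, differences of 4.83, 4.68 and 4.36 (adjusted p = 0.0077, 0.0035 and 0.0073). For Psat1 the differences were 4.02, 5.60 and 4.61. In the groups of the other models Phgdh held 8 to 15 reads and Psat1 9 to 26, summed over 3 libraries, so their effects there rest on few reads. Csad rose by 2.55 in restricted livers and had log2 fold changes of -0.62, -3.70 and -3.98 in the other models, differences of 3.17, 6.26 and 6.53 (adjusted p = 0.0078, 2.5e-05 and 1.1e-05). Bhmt fell under methionine restriction by 1.95 and had log2 fold changes of -0.07, 0.96 and -0.02 elsewhere. Asns did not differ past the threshold from any of them: its effects were 3.76 ± 0.54, 1.03 ± 0.87, -1.04 ± 1.49 and 2.67 ± 0.72. Fgf21 differed from calorie restriction, by 3.76 ± 0.88 (adjusted p = 0.017), where its own effect was -2.95.

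The glutathione transferases Gsta2 and Gsta4 rose in all 4 models, and more so here. Gsta2 changed by 4.46 ± 0.54 in methionine-restricted livers and by 1.86, 1.68 and 1.65 in the other models, differences of 2.60, 2.79 and 2.82 (adjusted p = 0.030, 0.012 and 0.011), and Gsta4 by 2.39 against 0.69, 1.29 and 0.68. Ephx1 rose by 2.13 and had -0.01, 0.17 and -0.47 elsewhere, with differences of 2.13, 1.96 and 2.60. Fgfr2 rose by 1.04 here and fell by 0.60, 0.55 and 0.49 in the calorie-restricted, knockout and Snell livers. Hsd17b6 rose in all 4, by 3.86 here and by 1.38, 1.15 and 1.75 in the others.

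Genes of the growth hormone axis differed from the mutants in part. Igf1 changed by -0.57 ± 0.21 here, by -6.05 ± 0.26 in the knockout and by -4.88 ± 0.24 in the Snell dwarf, differences of 5.48 and 4.30 (adjusted p = 8.7e-10 and 1.3e-08), and in the 8-group fit the change here did not pass (adjusted p = 0.13). Igfbp1 changed by -0.29 against 5.41 and 7.71. Igfbp2 changed by 1.29 here and by 1.79 and 2.95 in the knockout and the Snell dwarf, and the difference passed only for the Snell dwarf (adjusted p = 0.51 and 0.018). Ghr, at -0.69, differed from the knockout (-2.92, adjusted p = 4.6e-06) and not past the threshold from the Snell dwarf (-0.58, adjusted p = 0.82). The fall of Mup17, -6.83 ± 0.85, did not differ past the threshold from that in the knockout (-6.50 ± 0.82, adjusted p of the difference = 0.86), was smaller than in the Snell dwarf (-11.20 ± 1.01), and differed from calorie restriction (-0.34 ± 0.65) by -6.49 (adjusted p = 0.0014). Cyp4a14 and Cyp2a4 had adjusted p of 0.098 and 0.068 in this fit, and neither differed past the threshold between models.

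**Figure D5:**
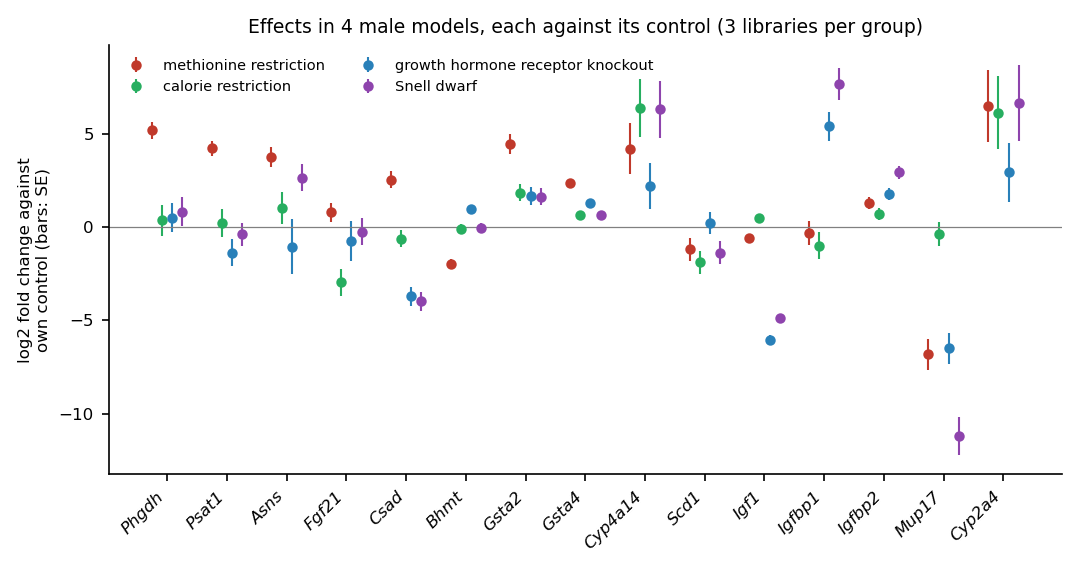
Log2 fold change of 15 genes in 4 male models, each against its own control (points, edgeR estimates; bars, SE; 3 libraries per group). Phgdh, Psat1 and Csad are higher for methionine restriction than for the other 3, Gsta2 and Gsta4 are above 0 in all 4, and Igf1 and Igfbp1 change by 4.88 or more on the log2 scale in both mutants.

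Of 523 genes called under methionine restriction and present in the 8-group fit, 56 were also called with the same sign under calorie restriction (10.7% of the 523 and 4.61% of the 1215 calorie restriction calls), 134 in the knockout (25.6% and 5.24% of 2558) and 196 in the Snell dwarf (37.5% and 6.18% of 3171). Of all 13905 genes, 8.74%, 18.4% and 22.8% were called in either direction in these 3 models. The restriction effect itself differed for 196, 229 and 207 of the 523, and for 5.86%, 12.7% and 13.5% of all 13905 genes. The 523 were chosen by their restriction effect in the same libraries, so a larger share among them follows from that choice.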

How the data were processed

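Liver RNA was sequenced as poly(A) libraries, and the authors deposited a table of raw read counts per gene for 78 libraries. Per the submitters' processing notes, bcl2fastq 1.8.4, Trimmomatic 0.32, STAR 2.5.2b and featureCounts 1.5 were used with GRCm38 (mm10); whether strand was used in counting is not given in the sources used here. Gene positions and exon lengths are from GENCODE M21 and promoters from RefSeq (GRCm38.p6), where 10493 tested genes had a match. Protein sequences were not used here.

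The 3 restricted and 3 control libraries were fitted alone with edgeR 4.0.16 (TMM scaling, filterByExpr, robust quasi-likelihood test, Benjamini-Hochberg adjustment over 13858 genes, threshold 0.05) in R 4.3.3. Differences from other models came from 1 edgeR fit of 8 male groups. The sexes of UM-HET3 controls were compared with the same test. CPM values use TMM-scaled library sizes. The alternatives tried were DESeq2 1.42.0, RLE scaling, keeping genes of low count, a replicate block, other groups in the fit, and each library left out in turn. On simulated counts changed by a factor of 2, 55.7% of 194 genes were recovered for the main comparison, and 28.3% to 32.1% for the 3 differences. Of the simulated calls at the 0.05 threshold, 9.24% were of unchanged genes in the main comparison, and 3.39% to 11.3% in the differences. Read counts of a gene give counting intervals only.

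Genes were named by rule: up to 12 per direction with the largest change past the threshold whose groups did not overlap, given an average log2 CPM no lower than 2; up to 4 that passed per list; a fixed set of stress, sulfur amino acid, growth hormone and lipid genes; and up to 3 per direction for each difference. Other genes named, such as Cux2, Gm15622, Cyp21a1 and list members that did not pass, were chosen after their values were seen. The members, lists and rules were chosen with earlier results of these data known. The result for 1 gene is not reported here.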

Additional observations from a re-analysis of the deposited data

Results flagged for a closer look

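The effect of methionine restriction differed from that of another male model for the genes below, by edgeR's test of the difference itself at an adjusted p under 0.05. Each value is the restriction effect minus the other effect on the log2 scale, so a gene can be listed through the other model alone. Restriction effects of 0.16 for Nr1d1 and 0.25 for Cbs did not pass, beside -4.85 and -0.97 under calorie restriction. The same held for Slc22a28 (-0.32) and Sult2a1 (0.03), beside -9.38 and 14.29 in the knockout, and for Elovl3 (-0.74), beside -10.7 in the Snell dwarf. Strain, age and base diet differ between the sets and cannot be told apart from the intervention.

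Against calorie restriction the difference was 5.59 for Tcf24, 5.01 for the clock repressor Nr1d1, 4.98 for Slc4a9, 4.83 for Phgdh, 4.02 for Psat1, 3.76 for Fgf21, 3.17 for Csad, 1.53 for Sesn2 and 1.22 for Cbs. It was negative for Cidea (-12.26), Mup17 (-6.49), Scara5 (-6.05), Dct (-4.86), Bhmt (-1.88) and Igf1 (-1.05).

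Against the growth hormone receptor knockout the difference was 9.06 for Slc22a28, 8.05 for Smad9, 7.40 for Wfdc21, 6.26 for Csad, 5.60 for Psat1, 5.48 for Igf1, 4.68 for Phgdh and 4.23 for Mthfd2. It was -14.26 for Sult2a1, -13.78 for Sult1e1, -12.07 for Sult2a5, -11.19 for Cidea, -5.71 for Igfbp1 and -2.91 for Bhmt. The methionine cycle and cysteine genes Ahcy, Gnmt, Mat1a, Cdo1 and Cth differed by -1.17, -1.09, -1.08, -0.97 and -0.96.

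Against the Snell dwarf the difference was 11.98 for Mup18, 9.97 for Elovl3, 9.52 for Mup10, 6.53 for Csad, 5.18 for Mthfd2, 4.61 for Psat1, 4.36 for Phgdh and 4.30 for Igf1. It was -14.53 for Sult2a5, -13.75 for Sult1e1, -13.29 for Sult2a2, -8.00 for Igfbp1, -1.92 for Bhmt, -1.71 for Mat1a, -1.66 for Igfbp2, -1.15 for Ahcy, -1.04 for Gnmt and -0.88 for Cth. Genes with groups at or near 0 reads, among them Cidea with 0 in the restricted libraries and Sult1e1 with 2, have fitted differences that depend on the prior count and are no bounds.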

How the results depend on the processing

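The 527 calls became 1092 with DESeq2 (509 higher, 583 lower, against 268 and 259), 523 with RLE size factors, 726 with no filter on low counts and 596 with the 8 male groups fitted together. Leaving out one library gave 98 to 1728 in all, 64 to 818 higher and 34 to 910 lower, the highest each time without control library 1; the cause was not tested. The difference from calorie restriction covered 815 genes, 524 when only the 4 groups compared were fitted, and 470 to 1017 without one library. Without one library the differences from the knockout and the Snell dwarf covered 1046 to 2307 and 1238 to 2296 genes. None of the 527 genes changed sign under these alternatives. Among the 20 named genes that did not pass, 8 took the opposite sign in some leave-one-out fits. Their log2 fold changes over those fits ran from -0.19 to 0.21 for Ahcy, -0.48 to 0.051 for Cdo1, -0.16 to 1.499 for Chac1, -0.21 to 0.093 for Ddit3, -0.58 to 0.084 for Igfbp1, -0.22 to 0.33 for Krt18, -0.36 to 0.21 for Krt8 and -0.050 to 0.95 for Usp2. With replicate number as a block 481 genes passed; deviations of same-numbered libraries correlated at 0.083, 0.19 and 0.043, and library 3 did not correlate best with its own number, so the numbers were not taken to pair the samples. Under the block the transfer RNA synthetases that passed went from 3 to 0 and male-biased genes lower from 11 to 3. With 3 libraries a group, small changes were often not detectable.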
